A study of Homo sapiens with 12 samples.

Results

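The 38 genes described here encode proteins of the lysosome and of macroautophagy, the route that wraps cytoplasm in a double membrane and delivers it to the lysosome. They were taken by symbol from a fixed list and matched to rows of the count matrix, 38 of 57500 genes listed, and each had enough counts to be tested. By known role 18 belong to the lysosome, 18 to the autophagy machinery, and 2, TFEB and TFE3, are transcription factors of lysosomal genes. The list was drawn up with results of this series known, so it is described by counts and medians and carries no test of its own.

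OE33 is an epithelial cell line from an esophageal adenocarcinoma. RNA from 12 cultures was sequenced, 3 per group. Parental cells were left untreated. The rABS cells survived 15 days of daily 20-minute exposures to a cocktail of bile salts at 200 µM and pH 5.5. Survivors of that protocol then received a stable non-targeting hairpin (rABS+shCtrl, here shCtrl) or a hairpin against APE1 (rABS+shAPE1, here shAPE1), so both transduced groups carry the exposure history as well as a vector. The labels describe replicates as biologically independent, name 1 hairpin against APE1, and describe no mock-exposed culture and no transduced Parental culture. Time in culture and exposure therefore cannot be told apart, nor can the hairpin's target and differences between the transduced populations.

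Library totals ran from 15736087 to 23010377 counts. APEX1, the gene of APE1, was at 56.5 to 62.0 CPM (counts scaled to a common library size) in shCtrl and 4.42 to 5.88 CPM in shAPE1, low in the libraries labelled for its hairpin. It was at 52.9 to 56.9 CPM in Parental and 79.9 to 84.5 CPM in rABS, so the shCtrl libraries also lay below those of rABS. All 5 epithelial markers examined were above 5 CPM in every library, and those of T cells and endothelium summed to at most 0.826 CPM, with CD3D and CD2 at 0 throughout. Macrophages are rich in lysosomes. Their 5 markers summed to 4.48 to 6.86 CPM in Parental, 6.77 to 9.04 in rABS, 6.04 to 6.61 in shCtrl and 6.06 to 8.08 in shAPE1, and none was at 0 throughout. The 5 fibroblast markers summed to 20.9 to 27.0 CPM in Parental, 3.53 to 4.22 in rABS, 9.48 to 10.0 in shCtrl and 7.42 to 8.30 in shAPE1, with LUM at 0 throughout and COL1A1 the most abundant. COL1A1 alone made up the highest Parental sum, 27.0 CPM. CD14 was the most abundant macrophage marker, at up to 6.40 CPM in a library. The part of these markers in the results was not tested.

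Autophagy starts when the ULK1 kinase complex activates a lipid kinase complex that holds BECN1. ATG9 vesicles supply membrane, and a conjugation system built of ATG7, ATG12, ATG5 and ATG16L1 attaches proteins of the ATG8 family, such as LC3B and the GABARAPs, to the growing membrane, where receptors such as p62 (SQSTM1) hand over cargo. The finished vesicle fuses with the lysosome, an acidic compartment whose proteases, glycosidases and lipid-degrading enzymes break the cargo down. Many lysosomal genes are known targets of TFEB and TFE3, which bind a palindromic E-box called the CLEAR element.

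Because TFEB and TFE3 are themselves on the list, the promoters of the members were searched for the core of that element. RefSeq promoter windows (GRCh38.p14, 250 bases before to 50 after the start of a transcript, 300 in all) were found for 31 of the 38 members. The 7 others were LAMP2, HEXA, CTSB, ASAH1, UVRAG, PSAP and SGSH. The palindrome TCACGTGA occurred in 4 of 12 lysosomal and 0 of 17 autophagy members, against 0.98% of all 35116 windows. The 4 windows are shown from 90 bases before to 10 after the start, 100 bases in all and 5′ to 3′ on the gene's strand, with TCACGTGA in capitals.
LAMP1, chr13:113297149-113297248, plus strand: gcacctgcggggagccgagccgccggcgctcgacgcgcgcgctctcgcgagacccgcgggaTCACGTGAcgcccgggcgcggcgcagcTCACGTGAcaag
MCOLN1, chr19:7522534-7522633, plus strand: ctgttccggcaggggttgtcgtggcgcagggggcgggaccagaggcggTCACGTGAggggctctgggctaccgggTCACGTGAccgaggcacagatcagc
CTSA, chr20:45891245-45891344, plus strand: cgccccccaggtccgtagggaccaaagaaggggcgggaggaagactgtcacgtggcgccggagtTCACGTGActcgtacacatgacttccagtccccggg
GAA, chr17:80101491-80101590, plus strand: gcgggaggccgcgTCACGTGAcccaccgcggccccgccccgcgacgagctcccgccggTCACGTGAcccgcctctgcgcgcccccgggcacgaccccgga

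LAMP1, MCOLN1 and GAA each held 2 copies in these windows and CTSA held 1. The shorter E-box CACGTG, which lies within TCACGTGA, was found in 6 of 12 lysosomal and 1 of 17 autophagy members, against 7.26% of all windows. Its further carriers were CTSD, NEU1 and ATG14, shown here over 30 bases with the E-box in capitals.
CTSD, chr11:1763957-1763986, minus strand: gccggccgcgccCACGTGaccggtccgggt
NEU1, chr6:31862930-31862959, minus strand: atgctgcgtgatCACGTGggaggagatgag
ATG14, chr14:55411834-55411863, minus strand: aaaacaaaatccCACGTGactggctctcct

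The sequence TGATGNAA, a core that ATF4 and its partners can bind, was in no member's window and in 3.62% of all. TGACNNNGC, the core of the antioxidant response element, was in 7 of 12 lysosomal and 2 of 17 autophagy members (ATG9B and MAP1LC3B), against 13.3% of all. Both strands were searched for each of the 4 sequences. A member was counted where any of its windows matched, while the shares of all are over single windows, so the 2 measures differ. A match describes the letters in this window and is not a measured binding site.

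The largest changes on the list were losses of autophagy transcripts in the exposed survivors, while changes among lysosomal genes were mostly smaller. In further genes of the pathway, given below, the medians for rABS against Parental lay closer together. They were log2 -0.25 for autophagy and -0.11 for the lysosome. The level of a class was taken as the mean over its genes of log2 CPM minus each gene's Parental mean. For the 18 autophagy genes it was -1.02 ± 0.03 in rABS (SD, n = 3 libraries), -0.77 ± 0.02 in shCtrl and -0.72 ± 0.01 in shAPE1. For the 18 lysosomal genes it was -0.13 ± 0.07 in rABS, -0.40 ± 0.03 in shCtrl and -0.17 ± 0.05 in shAPE1. So by these means over genes rABS was the lowest group for autophagy and shCtrl the lowest for the lysosome. The 4 autophagy conjugation genes differed, at -0.07 ± 0.06 in rABS, -0.07 ± 0.05 in shCtrl and -0.29 ± 0.06 in shAPE1. In these bulk samples a lower level in every cell and a loss from some of the cells cannot be told apart.

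**Figure D1:**
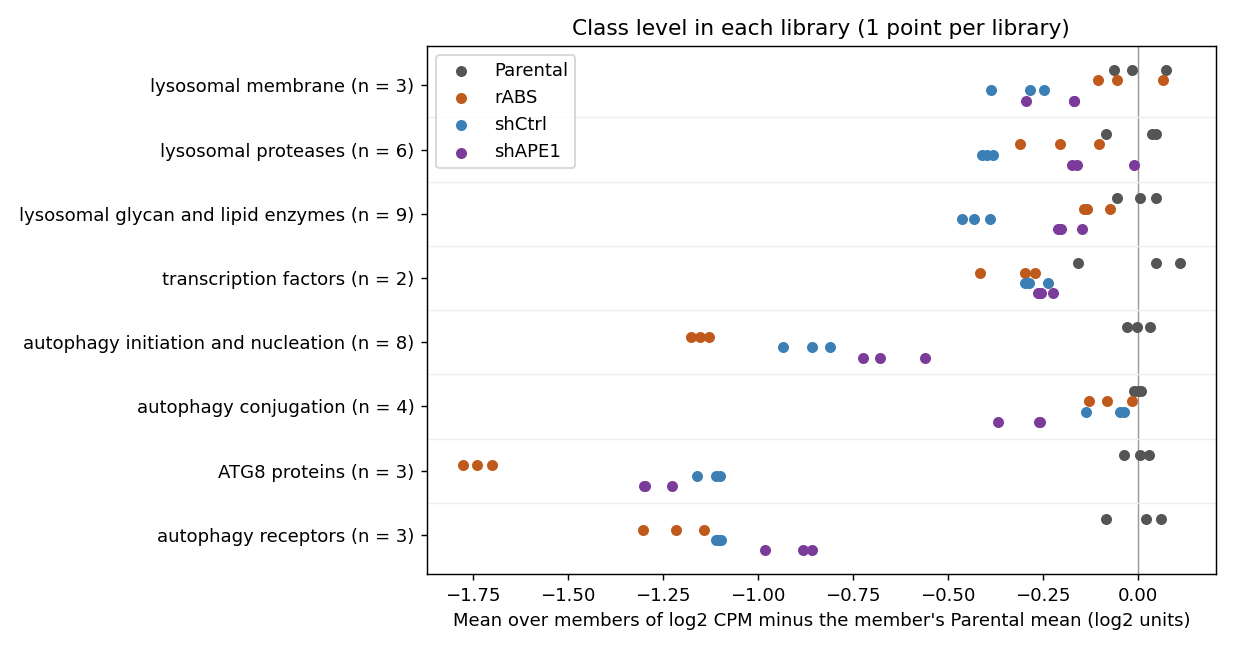
Class level (x axis, mean over member genes of log2 CPM minus the Parental mean of each gene, log2 units) in each of 12 libraries, 1 point per library, for 8 classes of members. ATG8 genes, receptors and initiation genes lie between -0.56 and -1.78 in the 9 exposed libraries, and the lysosomal classes lie at -0.46 or above.

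Which of these genes differed after repeated exposure was read from rABS against Parental. Of 38 members 23 fell, 3 rose and 12 were not called (edgeR quasi-likelihood test, Benjamini-Hochberg adjusted p under 0.05). Of all 15805 genes tested, 29.9% were called lower and 29.9% higher. In the autophagy arm 14 of 18 fell and 1 rose, with a median log2 change of -0.88. In the lysosomal arm 8 of 18 fell and 2 rose, with a median of -0.08, and the median over all genes tested was -0.01. The lysosomal median varied with the library left out: it was -0.14 without Parental replicate 2, -0.13 without rABS replicate 2, -0.041 without Parental replicate 3 and -0.045 without rABS replicate 3. The autophagy median varied too, from -0.93 without rABS replicate 3 to -0.84 without rABS replicate 2. All 8 members that fell at least 2-fold were autophagy genes, and 9.31% of all genes fell that far. The only member that rose at least 2-fold was the lysosomal gene GLA, where 10.1% of all genes did.

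**Figure D2:**
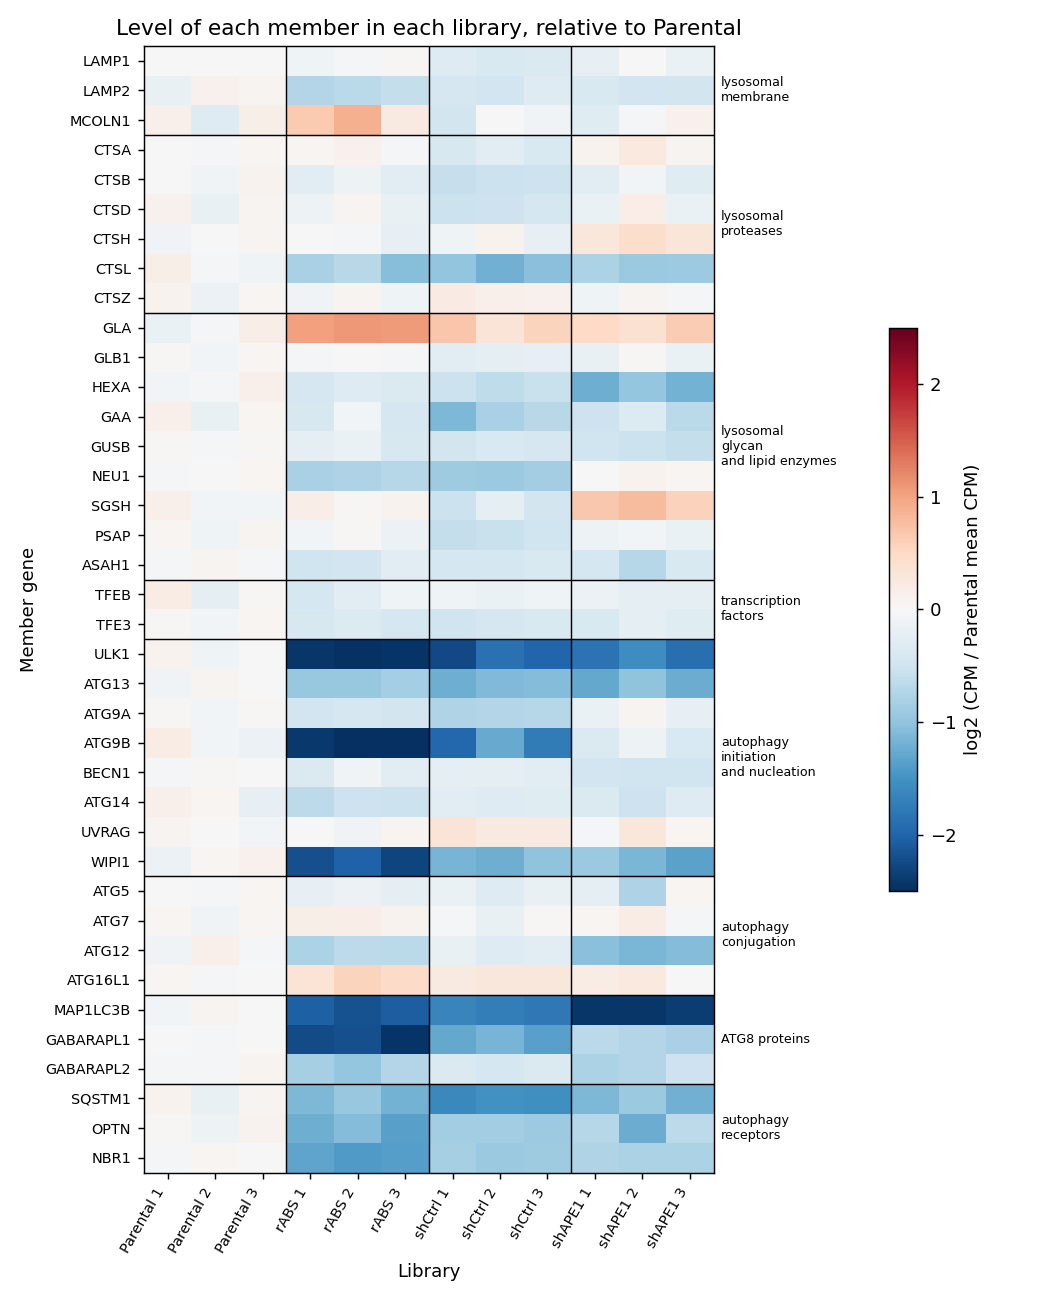
Level of each of the 38 members (rows, by class) in each of 12 libraries (columns), as log2 of CPM over the gene's Parental mean CPM; blue is lower and red higher. The dark rows in the rABS columns are ULK1, ATG9B, WIPI1, MAP1LC3B and GABARAPL1.

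At the head of the pathway, 7 of 8 initiation and nucleation genes fell in rABS, where 29.9% of all genes did. ULK1, the kinase that starts autophagy (chromosome 12, 131894651 to 131923167, plus strand, GRCh38), was at 244, 213 and 233 CPM in Parental and at 42.3, 41.2 and 42.3 CPM in rABS. It stood at 48.2, 63.1 and 57.9 CPM in shCtrl and 63.9, 77.9 and 62.3 CPM in shAPE1. The highest exposed library, shAPE1 replicate 2, thus lay far below the lowest Parental one, and the rABS libraries lay below all others. The fall in rABS was 5.48-fold (log2 -2.45 ± 0.09, standard error, adjusted p = 7.29e-21).

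ATG13, a regulatory subunit of the ULK1 complex, was at 149, 167 and 159.8 CPM in Parental and 81.8, 81.7 and 88.0 CPM in rABS, a fall of 1.89-fold (adjusted p = 3.62e-12). In shCtrl it was at 68.4, 73.3 and 74.3 CPM and in shAPE1 at 65.3, 79.2 and 67.5 CPM, so no exposed library reached the Parental range. Between shCtrl and Parental the difference was 2.20-fold.

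Both ATG9 genes, which encode lipid scramblases of the membrane-donating vesicles, fell. ATG9A was at 186 ± 7.02 CPM in Parental and 136 ± 3.04 CPM in rABS, a fall of 1.37-fold (adjusted p = 1.81e-06). ATG9B (chromosome 7, 151012209 to 151024499, minus strand) was at 30.2, 25.3 and 23.9 CPM in Parental and 4.95, 4.54 and 4.69 CPM in rABS, a fall of 5.58-fold (log2 -2.48 ± 0.15, adjusted p = 1.61e-15). It then stood at 6.76, 11.03 and 7.91 CPM in shCtrl and 20.7, 24.1 and 20.3 CPM in shAPE1. Among the exposed libraries, shAPE1 replicate 2 alone reached the Parental range. Exons of ATG9B overlap those of NOS3 on the other strand, and strand use in the counting is not given in the sources used here. NOS3 fell less, 1.61-fold, from 23.2 ± 1.62 to 14.4 ± 1.74 CPM (adjusted p = 5.56e-06).

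WIPI1, which binds the lipid made by the BECN1 complex, was at 37.8, 43.3 and 45.1 CPM in Parental and 9.22, 10.4 and 8.62 CPM in rABS, 4.48-fold lower (log2 -2.16 ± 0.12, adjusted p = 9.38e-17). It was at 18.9, 18.1 and 20.9 CPM in shCtrl and 22.0, 19.0 and 16.6 CPM in shAPE1, between the rABS and Parental ranges. ARSG, whose exons overlap it, was at 5.92 ± 0.231 CPM in Parental and 6.25 ± 0.568 CPM in rABS.

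The lipid kinase complex itself moved less. ATG14, its autophagy-specific subunit, fell 1.48-fold in rABS (adjusted p = 0.000166), and BECN1 fell 1.18-fold (adjusted p = 0.0231), a call that was lost in 5 of 14 alternatives. UVRAG, the subunit of the endosomal form, was at 28.4 ± 1.42 CPM in Parental and 28.5 ± 1.64 CPM in rABS (adjusted p = 0.963).

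Of the conjugation enzymes, 1 of 4 fell and 1 rose, near the shares over all genes (29.9% each way). ATG12, a ubiquitin-like protein, fell 1.63-fold (adjusted p = 1.17e-08), from 59.2 ± 4.45 to 36.3 ± 1.95 CPM. ATG16L1, which places the complex on the membrane, rose 1.38-fold (adjusted p = 2.38e-05), the sole rise in the autophagy arm. ATG5 was at 26.4 ± 0.840 and 23.2 ± 0.642 CPM, and ATG7, the activating enzyme, at 44.4 ± 2.52 and 48.5 ± 1.39 CPM (adjusted p = 0.201 and 0.190).

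All 3 ATG8-family members fell in rABS, where 29.9% of all genes did. MAP1LC3B (chromosome 16, 87383995 to 87404779, plus strand), which encodes LC3B, the usual marker of autophagosomes, was at 235, 258 and 246 CPM in Parental and 59.8, 54.6 and 59.0 CPM in rABS. It was at 78.3, 74.7 and 71.4 CPM in shCtrl and 45.7, 45.6 and 47.8 CPM in shAPE1, so the 4 groups did not overlap and shAPE1 was lowest. The fall in rABS was 4.26-fold (log2 -2.09 ± 0.07, adjusted p = 9.28e-22). Its near-identical copy MAP1LC3B2 had at most 4 counts in a library.

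GABARAPL1 (chromosome 12, 10212458 to 10223130, plus strand) was at 73.4, 72.1 and 74.0 CPM in Parental and 15.5, 16 and 13.4 CPM in rABS. Its levels were 30.1, 32.5 and 28.7 CPM in shCtrl and 46.0, 43.9 and 41.6 CPM in shAPE1. Here too the 4 groups did not overlap, but shAPE1 was the highest of the exposed groups. The fall in rABS was 4.89-fold (log2 -2.29 ± 0.09, adjusted p = 5.49e-20). GABARAPL2 fell 1.79-fold (adjusted p = 2.70e-09), from 47.1 ± 2.19 to 26.3 ± 2.24 CPM.

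The 3 cargo receptors fell in rABS, each at least 2-fold, where 9.31% of all genes fell that far. SQSTM1, which encodes p62 (chromosome 5, 179806398 to 179838078, plus strand), was at 1077, 894 and 1069 CPM in Parental, 467, 525 and 448 CPM in rABS, 333, 357 and 349.8 CPM in shCtrl and 467, 535 and 439 CPM in shAPE1. The rABS and shAPE1 ranges overlapped, shCtrl lay below both, and Parental above all. The fall in rABS was 2.11-fold (adjusted p = 1.70e-13). MGAT4B, whose exons overlap those of SQSTM1, fell 1.499-fold (adjusted p = 1.15e-07).

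NBR1, a second receptor of ubiquitinated cargo, was at 341, 365 and 355 CPM in Parental and 142, 132 and 136 CPM in rABS, 2.58-fold lower (log2 -1.37 ± 0.06, adjusted p = 2.82e-18). It was at 198, 185 and 189.8 CPM in shCtrl and 209.9, 204 and 204 CPM in shAPE1, above rABS and well below Parental. OPTN, optineurin, a receptor for mitochondria and bacteria, was at 74.7, 67.4 and 78.4 CPM in Parental and 31.4, 34.9 and 28.5 CPM in rABS, 2.33-fold lower (adjusted p = 1.73e-11). It was at 40.4, 40.0 and 39.1 CPM in shCtrl and 44.9, 31.1 and 46.6 CPM in shAPE1, where replicate 2 lay within the rABS range.

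**Figure D3:**
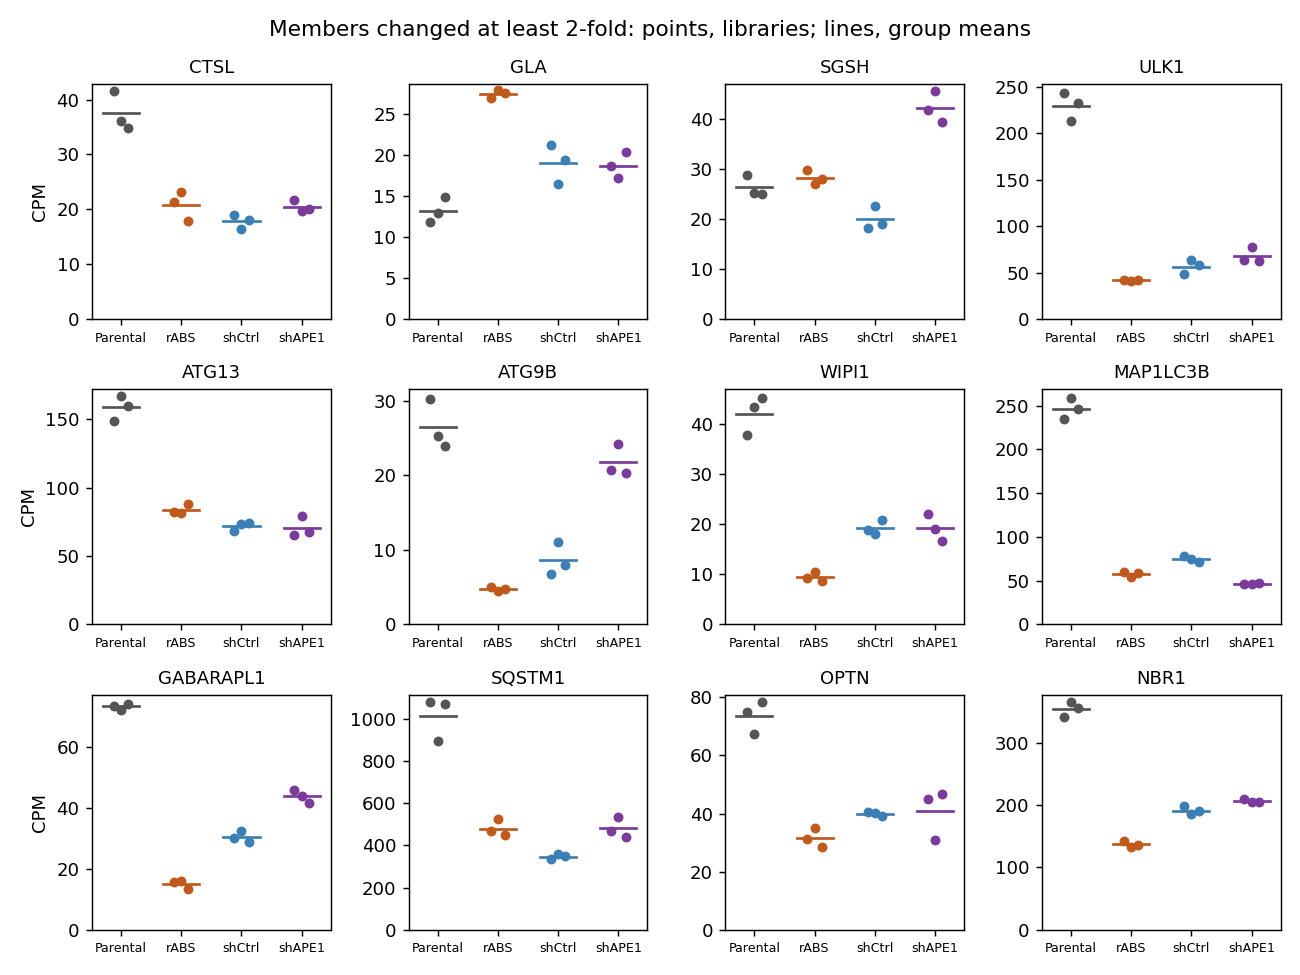
CPM (y axis, from 0) of the 12 members that were called and changed at least 2-fold in a comparison, by group (x axis); points are libraries and lines group means of 3. ULK1 falls from 213 or more in Parental to 42.3 or less in rABS, and ATG9B is at 20.3 to 24.1 in shAPE1 against 6.76 to 11.03 in shCtrl.

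Falls among the 18 lysosomal members reached at most 1.80-fold in rABS. Of 6 proteases 2 fell, near the 29.9% of all genes called lower. CTSL, cathepsin L, a cysteine protease, was at 41.7, 36.1 and 34.8 CPM in Parental and 21.4, 23.2 and 17.9 CPM in rABS, 1.80-fold lower (adjusted p = 2.39e-08). It was at 19.0, 16.4 and 18.1 CPM in shCtrl and 21.6, 19.6 and 20.1 CPM in shAPE1, so the exposed groups overlapped with rABS and every exposed library was below Parental. CTSB, cathepsin B, fell 1.16-fold (adjusted p = 0.00691), a call lost without Parental replicate 3 (adjusted p = 0.0607). CTSA, CTSD, CTSH and CTSZ were not called, with log2 changes between -0.09 and 0.04.

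Among the 9 enzymes and cofactors of glycan and lipid breakdown 5 fell and 1 rose, where 29.9% of all genes fell and 29.9% rose. GLA, alpha-galactosidase A, which clears globosides (chromosome X, 101397803 to 101408012, minus strand), was at 11.8, 12.9 and 14.9 CPM in Parental and 27.0, 27.9 and 27.6 CPM in rABS, 2.08-fold higher (log2 1.06 ± 0.11, adjusted p = 1.12e-09). It was at 21.2, 16.5 and 19.4 CPM in shCtrl and 18.6, 17.2 and 20.4 CPM in shAPE1, above every Parental library and below every rABS one. NEU1, the lysosomal sialidase, fell 1.71-fold (adjusted p = 1.17e-11), from 142 ± 4.69 to 83.0 ± 2.65 CPM. ASAH1, acid ceramidase, fell 1.33-fold and HEXA, the alpha chain of beta-hexosaminidase, 1.30-fold (adjusted p = 6.57e-05 and 0.000301).

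GAA, acid alpha-glucosidase, fell 1.22-fold and GUSB, beta-glucuronidase, 1.20-fold (adjusted p = 0.0217 and 0.00455). The GAA call was lost without Parental replicate 1 or 3 or rABS replicate 1 or 3 (adjusted p from 0.0847 to 0.159). The GUSB call was lost without rABS replicate 3 (adjusted p = 0.0530). PSAP, the saposin precursor, GLB1, beta-galactosidase, and SGSH, the sulfamidase of heparan sulfate breakdown, were not called.

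The membrane proteins diverged. LAMP2, a glycoprotein of the lysosomal wall, fell 1.59-fold (adjusted p = 6.88e-09), from 110.1 ± 11.3 to 69.5 ± 3.12 CPM, while its relative LAMP1 was at 385 ± 3.04 and 377 ± 18.4 CPM (adjusted p = 0.730). MCOLN1, the calcium channel TRPML1, rose 1.54-fold from a low level, 8.67 ± 1.47 to 13.3 ± 2.97 CPM (adjusted p = 0.00151). Of the transcription factors, TFE3 fell 1.32-fold (adjusted p = 1.33e-05), and TFEB was at 15.9 ± 2.41 CPM in Parental and 13.2 ± 1.497 CPM in rABS (adjusted p = 0.0745). TFEB would have been called without Parental replicate 2 (adjusted p = 0.0131) or rABS replicate 3 (adjusted p = 0.0399).

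To set levels of different genes side by side, CPM were taken per kilobase of exon, using the union of GENCODE 29 exons. In Parental they ran from 2.19 CPM per kilobase for MCOLN1 to 255 for PSAP, with SQSTM1 second at 132 and MAP1LC3B at 46.4, beside CTSB at 44.7. In rABS MAP1LC3B stood at 10.9 CPM per kilobase, ULK1 at 5.51 against 30.2 in Parental, and PSAP at 245. The order among the abundant lysosomal genes, PSAP, CTSD, LAMP1 and CTSA, was the same in Parental and rABS, though the group values of LAMP1 and CTSA lay close together (65.7 and 62.8 in rABS). These exon unions count every annotated isoform, so values per kilobase are approximate.

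Survivors that had received the non-targeting vector were next set against rABS cells. Here most calls in the 2 arms had opposite signs. In the autophagy arm 10 of 18 rose and 3 fell (median log2 0.31), and in the lysosomal arm 10 of 18 fell and 1 rose (median -0.27). Of all genes 17.9% were called higher and 18.6% lower, and the median over all genes was 0.02. The rABS libraries enter both this comparison and the one above, which are therefore not independent.

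Among the autophagy genes GABARAPL1 rose 2.04-fold (adjusted p = 3.46e-10) and WIPI1 2.05-fold (adjusted p = 3.58e-08), the 2 members that rose at least 2-fold, as 3.32% of all genes did. ATG9B rose 1.83-fold, NBR1 1.40-fold, GABARAPL2 1.37-fold, ATG12 1.36-fold, ULK1 1.35-fold and MAP1LC3B 1.29-fold. OPTN rose 1.26-fold (adjusted p = 0.0155), a call lost without rABS replicate 1 (adjusted p = 0.0557), rABS replicate 3 (0.0940) or shCtrl replicate 1 (0.0501). UVRAG rose 1.19-fold (adjusted p = 0.0373) and lost its call in 7 of 14 alternatives.

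SQSTM1 went the other way, 1.38-fold lower (adjusted p = 1.66e-05), as did ATG9A, 1.21-fold (adjusted p = 0.00237). ATG13 fell 1.16-fold (adjusted p = 0.0250), and that call was lost without rABS replicate 3 or shCtrl replicate 1 (adjusted p = 0.0991 and 0.0993).

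Of the lysosomal genes MCOLN1 fell 1.71-fold (adjusted p = 0.000315), to 7.70 ± 1.20 CPM, near its Parental level of 8.67. GAA fell 1.49-fold, GLA 1.45-fold, PSAP and SGSH 1.41-fold each, CTSD 1.34-fold, CTSA 1.31-fold, CTSB 1.26-fold and LAMP1 1.25-fold. GLB1 fell 1.15-fold (adjusted p = 0.0266) and lost its call in 5 of 14 alternatives. LAMP2 rose 1.20-fold (adjusted p = 0.00801), the sole lysosomal rise, and lost its call without rABS replicate 1 (adjusted p = 0.0544) or shCtrl replicate 3 (0.0678).

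Set against Parental, with which the comparisons above share libraries, shCtrl was lower for both arms. In the autophagy arm 14 of 18 were lower and 2 higher (median log2 -0.81), and in the lysosomal arm 14 of 18 were lower and 1 higher (median -0.41). Of all genes 26.1% were called lower and 27.0% higher, with a median of 0.03. At least 2-fold lower were 8 members, 7 of them autophagy genes, against 5.31% of all genes. ULK1 was 4.07-fold lower, MAP1LC3B 3.30-fold, ATG9B 3.05-fold, SQSTM1 2.92-fold, GABARAPL1 2.40-fold, ATG13 2.20-fold, WIPI1 2.18-fold and CTSL 2.10-fold. ATG16L1 and UVRAG were higher in the autophagy arm, by 1.21-fold and 1.20-fold, and GLA in the lysosomal arm, by 1.44-fold (adjusted p = 0.00876, 0.0233 and 0.00026). The UVRAG call was lost without Parental replicate 3 (adjusted p = 0.0890) or shCtrl replicate 1 (0.0829). Leaving out a library gave 11 to 13 autophagy members called lower, with 11 without Parental replicate 2. ATG14, 1.22-fold lower (adjusted p = 0.0386), lost its call in 8 of 14 alternatives, and BECN1, 1.19-fold lower (adjusted p = 0.0187), in 4. ATG12, 1.20-fold lower (adjusted p = 0.00751), lost it without Parental replicate 2 (0.0622).

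**Figure D4:**
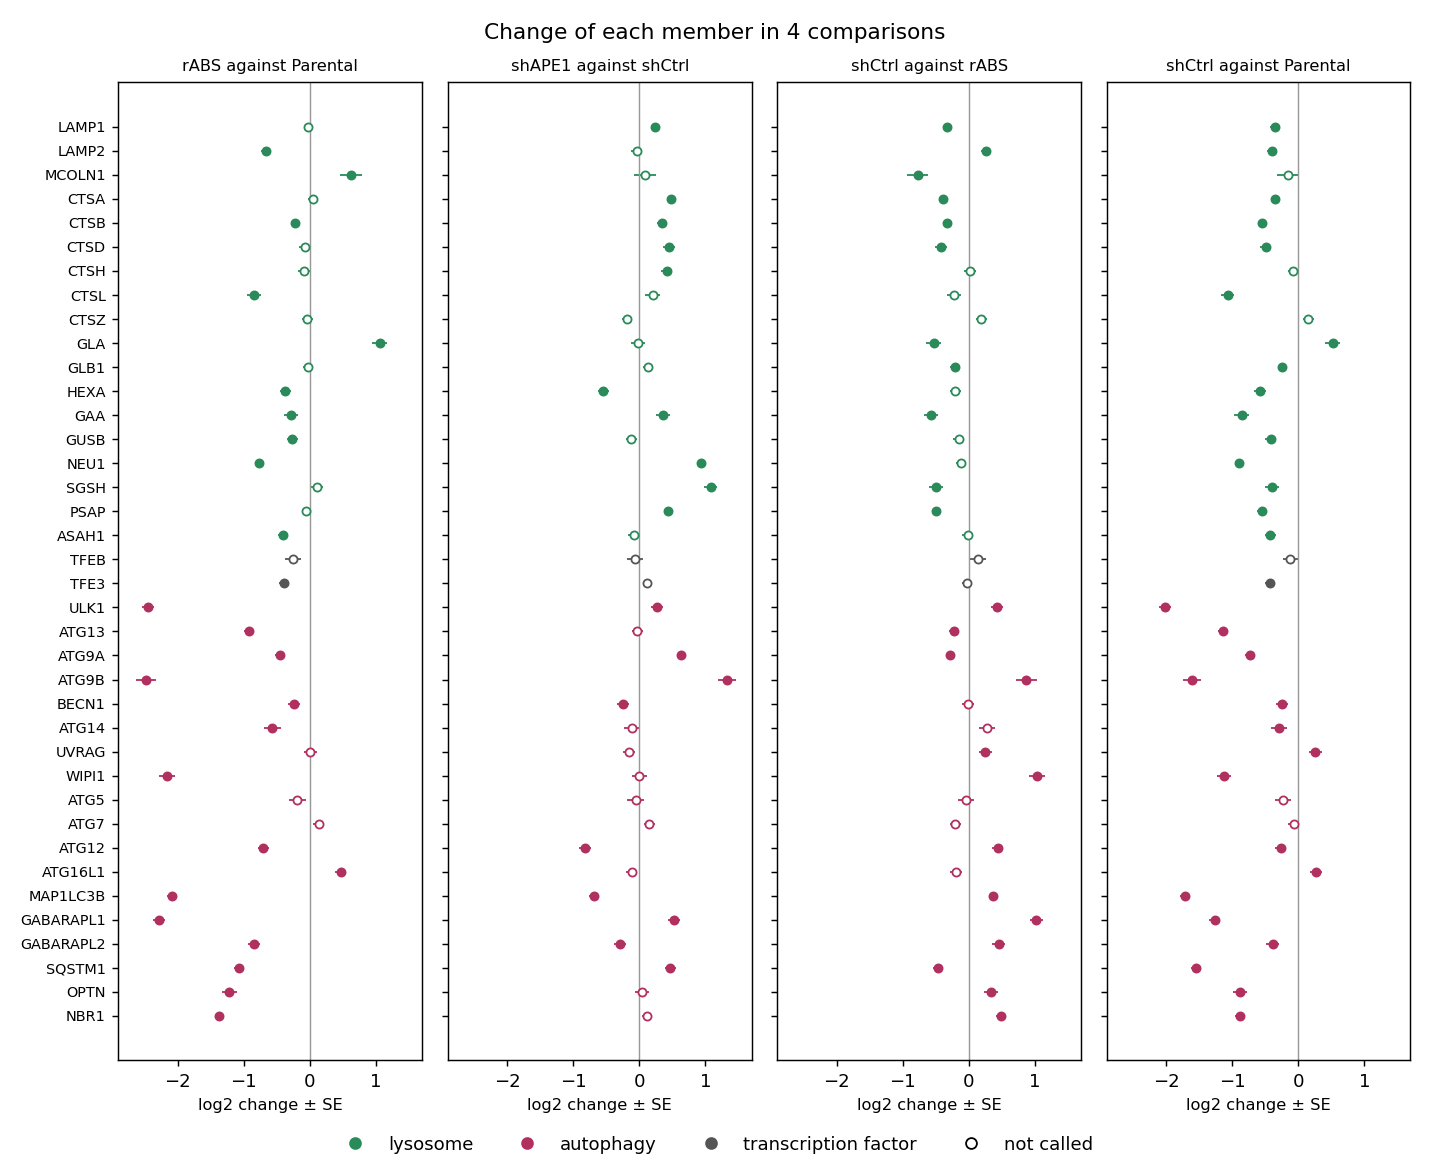
Log2 change (x axis) with its standard error for each of the 38 members in the 4 comparisons, which share libraries; filled points passed the adjusted p threshold of 0.05 and open points did not. Autophagy genes reach -2.48 for rABS against Parental, and lysosomal genes lie mainly to the right of 0 for shAPE1 against shCtrl, with 9 of 18 called higher and HEXA called lower.

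Differences with the APE1 hairpin were read from shAPE1 against shCtrl, 2 groups that both carry a vector, the latter shared with the comparisons above. Among the lysosomal genes 9 of 18 rose and 1 fell (median log2 0.22). Of the risers, CTSA, CTSB, CTSD, GAA, LAMP1, PSAP and SGSH were called lower for shCtrl against rABS, and CTSH and NEU1 were not. The lysosomal level was -0.17 ± 0.05 in shAPE1, -0.40 ± 0.03 in shCtrl and -0.13 ± 0.07 in rABS. A difference between shAPE1 and rABS was not tested. The autophagy genes split, with 5 of 18 higher and 4 lower (median -0.01). Of all genes 17.8% were called higher and 18.8% lower, with a median of -0.02. At least 2-fold higher were SGSH and ATG9B, as were 1.41% of all genes. Neither transcription factor was called (TFE3 log2 0.12 ± 0.07, TFEB -0.07 ± 0.12). Within shAPE1, replicate 2 had the highest CTSA (424 CPM), CTSD (334 CPM) and ATG9A (195 CPM) and the lowest ASAH1 (63.4 CPM). Without it 8 lysosomal members rose and 2 fell, the added one being CTSZ (adjusted p = 0.0305), and 4 autophagy members rose and 3 fell. Among these autophagy falls UVRAG was added (adjusted p = 0.0490), while GABARAPL2 and BECN1 were lost (0.0527 and 0.0741).

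SGSH was at 28.8, 25.2 and 25.0 CPM in Parental, 29.7, 26.9 and 27.9 CPM in rABS, 18.1, 22.5 and 19.1 CPM in shCtrl and 41.8, 45.7 and 39.3 CPM in shAPE1. The shAPE1 libraries were above all others and the shCtrl libraries below all others. The rise was 2.12-fold (log2 1.08 ± 0.10, adjusted p = 1.93e-10). Its exons overlap those of SLC26A11, which rose 1.78-fold (adjusted p = 9.74e-05). The partner of SGSH was at 5.45 ± 1.25 CPM in shCtrl and 9.79 ± 0.747 CPM in shAPE1, and reads shared between the pair cannot be told apart without the strand.

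NEU1 rose 1.92-fold (log2 0.94 ± 0.07, adjusted p = 8.37e-13), from 76.5, 75.0 and 77.3 CPM in shCtrl to 140.1, 151 and 148 CPM in shAPE1, the level of Parental (137, 142 and 146 CPM). Its protein partner CTSA, also called protective protein, rose 1.40-fold, CTSD 1.37-fold, PSAP 1.35-fold, CTSH 1.33-fold, CTSB 1.27-fold and LAMP1 1.18-fold, with adjusted p from 5.73e-07 to 0.00529. GAA rose 1.28-fold (adjusted p = 0.0103), and that call was lost without shAPE1 replicate 2 (adjusted p = 0.0794) or shCtrl replicate 1 (0.0956).

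HEXA was the lysosomal exception, 1.46-fold lower (adjusted p = 8.19e-06), from 43.3, 40.5 and 43.0 CPM to 27.0, 32.2 and 27.8 CPM. MCOLN1 was at 7.70 ± 1.20 and 8.23 ± 1.20 CPM (adjusted p = 0.753). The 4 genes with TCACGTGA in the promoter windows shown had mixed calls over the comparisons, which share libraries. LAMP1, CTSA and GAA rose here, all 4 fell for shCtrl against rABS, and all but MCOLN1 were lower for shCtrl against Parental. For rABS against Parental GAA fell, MCOLN1 rose, and LAMP1 and CTSA were not called.

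In the autophagy arm ATG9B rose 2.51-fold (log2 1.33 ± 0.14, adjusted p = 2.37e-09), and NOS3, which overlaps it, rose 1.21-fold (adjusted p = 0.0493). ATG9A rose 1.55-fold (adjusted p = 1.22e-08), GABARAPL1 1.44-fold (adjusted p = 1.08e-05) and SQSTM1 1.39-fold (adjusted p = 1.26e-05), with MGAT4B beside it up 1.65-fold (adjusted p = 7.27e-09). ULK1 rose 1.20-fold (adjusted p = 0.0173), and that call was lost without shAPE1 replicate 2 (adjusted p = 0.180) or shCtrl replicate 1 (0.175).

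Lower were ATG12, 1.77-fold (adjusted p = 2.99e-09), from 51.9, 47.2 and 49.0 to 28.7, 26.7 and 28.1 CPM, and MAP1LC3B, 1.61-fold (adjusted p = 3.06e-09). Exons of ATG12 overlap those of AP3S1, whose level was not read. FBXO31, whose exons overlap MAP1LC3B, rose 1.36-fold (adjusted p = 0.00379), against the direction of MAP1LC3B. GABARAPL2 fell 1.22-fold (adjusted p = 0.0141), a call lost without shCtrl replicate 3, shAPE1 replicate 1 or shAPE1 replicate 2 (adjusted p from 0.0527 to 0.0939). BECN1 fell 1.18-fold (adjusted p = 0.0384) and lost its call in 12 of 14 alternatives. So within the ATG8 family the hairpin comparison gave 1 rise, GABARAPL1, and 2 falls.

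The members' 3′ untranslated regions were searched for TGCATTC, its neighbour GCATTCT, and for CTGCATT, which had been picked earlier from fold changes of this same comparison, so the counts support nothing beyond a description. In shAPE1 against shCtrl, 529 of 3630 genes with a match were called higher and 1331 lower. A match was present in 5 of 37 members with such a region, ATG12, HEXA, LAMP2, MAP1LC3B and NBR1, and in 29.1% of the 12483 tested genes that had one. Of the 5 carriers 3 fell (ATG12, HEXA and MAP1LC3B) and 0 rose. Of the 32 members without a match 2 fell and 14 rose, where 1402 of all 8853 genes without one fell and 2140 rose. Whether the hairpin acts on these sites was not tested.

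Other genes of the pathway, from 5 lists chosen by role, were read from the same fit. For rABS against Parental, 19 of 35 further autophagy genes fell and 3 rose (median log2 -0.25), where 29.9% of all genes fell and 29.9% rose. The scaffold gene RB1CC1, of the ULK1 complex, fell 2.57-fold (90.3 to 35.1 CPM, adjusted p = 6.65e-15), the receptor gene CALCOCO2 2.53-fold (adjusted p = 1.87e-15) and the fusion adaptor gene PLEKHM1 2.25-fold (adjusted p = 1.62e-14). Of 37 further lysosomal genes 15 fell and 11 rose (median -0.11), the rises near the share over all genes. NPC1, the cholesterol exporter, fell 3.65-fold (365.9 to 100.2 CPM, adjusted p = 3.23e-21). Others were FUCA1, a fucosidase gene, down 1.90-fold, and CTSC, cathepsin C, up 1.74-fold. Subunits of the vacuolar proton pump, which acidifies the lysosome, were called higher for 8 of 16 and lower for 4 (median 0.20), with ATP6V0D1 up 1.69-fold (adjusted p = 4.15e-08).

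For shCtrl against rABS 0 of 16 pump subunits rose and 7 fell (median -0.25), with ATP6V0D1 down 1.76-fold. Of the 35 further autophagy genes 10 rose and 3 fell, and of the 37 further lysosomal genes 8 rose and 8 fell. Of all genes 17.9% rose and 18.6% fell. The medians of these lists were 0.033 and 0.055, beside 0.022 over all genes. The opposite signs of the member medians were thus not seen in the further genes. RB1CC1 rose 1.68-fold (adjusted p = 3.98e-08), and ACP2, lysosomal acid phosphatase, fell 1.99-fold (adjusted p = 1.71e-09).

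For shCtrl against Parental further autophagy genes were lower in 18 of 35 cases and higher in 4 (median -0.22), and further lysosomal genes in 15 and 6 of 37 (median -0.17). Over all genes 26.1% were lower and 27.0% higher. The lipid-binding WDR45, a relative of WIPI1, was 3.09-fold lower (adjusted p = 8.93e-14). MITF, a relative of TFEB, was 2.11-fold higher, at 13.4 against 6.34 CPM (adjusted p = 1.11e-07). FLCN, a regulator of TFEB and TFE3 at the lysosome, was 1.88-fold lower (adjusted p = 1.66e-08).

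For shAPE1 against shCtrl 19 of 37 further lysosomal genes rose and 4 fell (median 0.27), where 17.8% of all genes rose and 18.8% fell. GM2A, the GM2 activator that serves beta-hexosaminidase, rose 1.77-fold (adjusted p = 6.94e-11), SMPD1, acid sphingomyelinase, 2.12-fold (adjusted p = 1.10e-08) and the peptidase gene TPP1 1.58-fold (adjusted p = 1.60e-08). Of the pump subunits 7 rose and 4 fell (median 0.17), and of 23 genes of nutrient sensing at the lysosome 10 rose and 3 fell (median 0.25). The further autophagy genes divided into 12 that rose and 11 that fell of 35 (median -0.06). BNIP3L, a mitophagy receptor gene, fell 2.35-fold (adjusted p = 1.55e-10) and AMBRA1, a regulator of the BECN1 complex, rose 1.69-fold (adjusted p = 4.44e-09). Genes that tag and sort enzymes by mannose 6-phosphate gave 3 rises and 3 falls among 10, with the receptor gene IGF2R down 1.39-fold (adjusted p = 2.72e-07).

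In edgeR's test over all 12 libraries ATG5, ATG7, CTSZ and TFEB, 4 of the 38 members, were called in 0 of the 4 comparisons. Their group means lay between 21.7 and 26.4 CPM for ATG5, 42.2 and 48.5 for ATG7, 71.3 and 81.4 for CTSZ, and 13.2 and 15.9 for TFEB. CTSZ, cathepsin Z, came nearest, at adjusted p = 0.0546 for shCtrl against rABS, and 5 of 14 alternatives called it there, limma-voom among them (adjusted p = 0.0494). ATG7 was at adjusted p = 0.0625 in that comparison and was called with RLE scaling (0.0493), DESeq2 (0.0451) and 6 libraries (0.0371). ATG5 had its widest spread in shAPE1, at 22.2, 15.5 and 27.5 CPM.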

How the data were processed

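RNA of 12 OE33 cultures was selected by poly(A) and sequenced. Raw read counts for each Ensembl gene were deposited, as whole numbers. Trimmomatic 0.36, STAR 2.5.2b, featureCounts of Subread 1.5.2 and the build GRCh38 are named in the submitters' processing notes. The annotation release, strand setting and treatment of multimapped reads are not stated there, so overlapping genes and close copies may share counts. Not every overlapping gene was read, among them those of CTSA (NEURL2 and PLTP) and MCOLN1 (PNPLA6). Symbols came from a table of gene names, positions and exon lengths from GENCODE 29.

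Genes were kept with filterByExpr (minimum count 10, minimum total 15), which left 15805, scaled by TMM and fitted with a robust quasi-likelihood model, 1 term per group over all 12 libraries (edgeR 4.0.16 in R 4.3.3, with limma 3.58.1). A gene was called where its p, adjusted over all genes by Benjamini-Hochberg, was under 0.05. Standard errors were derived from the F statistic. CPM use TMM-scaled totals, except cell type markers, and log2 CPM a prior count of 2. The procedure was tested on simulated counts for rABS against Parental. It recovered 80% of 50 genes changed 1.5-fold, 90% of 100 changed 2-fold and 98% of 50 changed 4-fold. Of 187 calls 8 were false. Smaller folds were not simulated, and far fewer genes were changed than were called in the data. Low counts limit precision: MCOLN1 had 120 to 276 counts per library.

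Members, lists and comparisons were chosen with earlier results of these data known. Members called and changed at least 2-fold in a comparison were given in every library, and of each further list at most 3 called genes by adjusted p per comparison. NEU1, HEXA, ATG12 and ATG5 were given by library after their values were seen. Alternatives were RLE and upper-quartile scaling, DESeq2 1.42.0, limma-voom, 2 other filters, 6-library fits, a replicate block and leaving out each library. Replicate numbers did not pair the samples. Of 126 further pathway genes 125 were matched.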

Additional observations from a re-analysis of the deposited data

How the results depend on the processing

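Of 152 results on members (38 genes in 4 comparisons, called or not), 25 had a call that changed under an alternative. Of these, 17 were calls that were lost and 8 were calls that were gained. In the edgeR fit over all 12 libraries their folds were 1.28 or less. Calls that reversed sign numbered 0. The replicate block, for numbers that did not pair the samples (correlations of same-numbered deviations from -0.17 to 0.07), ended 3 calls: BECN1 for shAPE1 against shCtrl (adjusted p = 0.0529), UVRAG for shCtrl against rABS (0.0549) and ATG14 for shCtrl against Parental (0.0530). It left 14 autophagy members lower in rABS than in Parental. The autophagy median for shAPE1 against shCtrl, -0.01, was 0.0064 with RLE scaling, 0.0061 with DESeq2, 0.027 with upper-quartile scaling and 0.00074 with 6 libraries, so its sign is not fixed. For shCtrl against rABS, lysosomal members called higher went from 1 to 2 with upper-quartile scaling, limma-voom, the filter at 1 CPM in 3 libraries, and 6 libraries, where CTSZ joined LAMP2, while ATG7 was called lower with RLE scaling, DESeq2 and 6 libraries, and autophagy members called lower from 3 to 5 with 6 libraries. Upper-quartile scaling gave an autophagy median of -0.79 for shCtrl against Parental, and RLE scaling an autophagy level of -0.71 in shAPE1. Leaving out each library in turn, the lysosomal median for rABS against Parental ran from -0.14 to -0.041, and the autophagy median ran from -0.93 to -0.84 for rABS against Parental, from -0.82 to -0.77 for shCtrl against Parental, and from -0.059 to 0.049 for shAPE1 against shCtrl. Called lower for shAPE1 against shCtrl were 2 to 3 autophagy members (2 without shCtrl replicate 3 or shAPE1 replicate 1) and 1 to 2 lysosomal members. Lysosomal members called higher for shCtrl against rABS numbered 0 to 2 (0 without rABS replicate 1 or shCtrl replicate 3), and autophagy members called higher for shCtrl against Parental 1 to 2 (1 without Parental replicate 3 or shCtrl replicate 1). The causes of these shifts were not tested. Low counts limit precision for genes such as ATG9B (78 in its lowest library) and MCOLN1 (120).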
